A study of Oryctolagus cuniculus with 8 samples.

Results

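The miR-23/27/24 miRNAs were examined in extracellular vesicles, the membrane particles that cells shed into body fluids, from the oviducts and uteri of rabbits. The members were every mature name in the count table whose stem is miR-23a, miR-23b, miR-27a, miR-27b or miR-24, on either arm of the hairpin. This gave 7 of the 579 mature names: ocu-miR-23b-3p, ocu-miR-23b-5p, ocu-miR-27b-3p, ocu-miR-27b-5p, ocu-miR-24-3p, ocu-miR-24-5p and ocu-miR-24-2-5p. They cover 3 of the 5 stems, and no row is named miR-23a or miR-27a. The prefix ocu, for the species, is left out below.

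All animals were wild-type, sexually mature California x New Zealand white does that had given birth before. The study used 21 does, synchronized with 25 IU of the gonadotropin eCG and triggered to ovulate with 20 µg of a synthetic GnRH analogue after 48 h. Oviducts were flushed with 1 mL and uteri with 2.2 mL of buffer, at least 14 to 15 h after the trigger, and vesicles were isolated by size exclusion. The oviductal group had 5 libraries, each a pool of 3 animals. The uterine group had 3 libraries, each a pool of 5, titled replicates 12, 3 and 4. These pools hold 30 places for animals, so some does contributed to several pools, and p-values measure the spread between pools that may not be independent. Libraries held 42684 to 569087 miRNA reads, and oviductal replicates 2 and 3 were the shallowest, with 1 read worth 21.0 and 23.4 reads per 1000000 miRNA reads (CPM). In bulk material of this kind, a change in the number of vesicles from a cell type and a change in the miRNA per vesicle cannot be told apart.

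A miRNA is cut from a hairpin in a primary transcript, and the products of the hairpin's sides are its 5p and 3p arms, of which usually 1 is kept and loaded into Argonaute to repress target mRNAs. Mammals carry a pair of related miR-23/27/24 clusters, each transcribed as a single primary transcript. The clusters are best known from blood vessels, where they affect endothelial growth and sprouting, from TGF-beta signalling, and from lipid metabolism and adipocyte differentiation for miR-27. In the RefSeq annotation of the rabbit assembly mOryCun1.1, MIR23B, MIR27B and MIR24-1 are next to each other inside AOPEP, an aminopeptidase gene, between FANCC and FBP1. MIR24-2 lies between the coding genes ZSWIM4 and NANOS3, away from that cluster; in other mammals it is the neighbour of the miR-23a and miR-27a hairpins. The miR-24-3p sequence is given by the MIR24-1 and the MIR24-2 hairpin, and the table lists it on 2 rows with equal counts, so its 9278 reads were not assigned to a locus. The 5p arms of these hairpins have names of their own, miR-24-5p for MIR24-1 and miR-24-2-5p for MIR24-2. miR-23a and miR-27a are near-identical in sequence to miR-23b and miR-27b, and whether reads of the a forms were counted under the b names was not tested.

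Together the 7 names held 0.634% to 1.03% of oviductal reads. Their share was 0.639%, 0.580% and 2.15% in the uterine libraries 12, 3 and 4. The mean was 0.822% ± 0.149 (SD, n = 5) in oviductal and 1.12% ± 0.890 (SD, n = 3) in uterine vesicles. The difference of 0.301 percentage points was smaller than the spread between uterine libraries (exact two-sided permutation p = 0.714), and it was -0.213 without uterine replicate 4. In that library 6265 of 291328 reads belonged to the clusters, with a 95% exact interval of 2.10% to 2.20% that covers counting error only. The 3p products miR-27b-3p, miR-24-3p and miR-23b-3p made up 95.9% to 100% of the clusters' reads in every library.

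None of the members differed between uterine and oviductal vesicles past the threshold. The low-count filter kept 4 of the 7, and edgeR's quasi-likelihood test called 0 of them at a Benjamini-Hochberg adjusted p of 0.05, where 1.69% of the 178 tested miRNAs were called. At an unadjusted p under 0.05, 2 of the 4, miR-27b-3p and miR-24-2-5p, were higher in uterine vesicles, beside 10.1% of all tested miRNAs. DESeq2 also called 0 members and had the same 2 under an unadjusted 0.05, and limma-voom called 0 and had miR-24-2-5p alone. With library totals in place of TMM factors, or without both shallow oviductal libraries, 0 members were under an unadjusted 0.05. Over the 18 alternatives miR-27b-3p was under it in 11 and miR-24-2-5p in 14. Log2 fold changes were positive for 3 of the 4 and negative for 1, where 48.9% of all tested miRNAs were positive. Their median was 0.73, against -0.02 over all tested miRNAs. It includes miR-24-2-5p at 2.97, whose passing of the low-count filter rested on the uterine group, where it is high. The others, miR-27b-3p, miR-23b-3p and miR-24-3p, were at 1.04, 0.41 and -0.01, so the median does not show a rise shared by the members.

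miR-27b-3p, known for repressing lipid and angiogenic regulators, was the most abundant member, with 11024 reads and place 28 among all names. In the oviductal libraries it was nearly constant, at 3599, 3488, 3866, 3429 and 4005 CPM in replicates 1 to 5. In the uterine libraries it was at 5143, 2624 and 12004 CPM in replicates 12, 3 and 4. Replicate 4 was the highest and replicate 3 the lowest of all 8 libraries, so the groups overlapped on this scale. Means were 3677 ± 248 CPM (SD, n = 5) and 6590 ± 4855 CPM (SD, n = 3). After TMM scaling, which corrects for the composition of each library, uterine replicate 3 moved to 3941 and the highest oviductal library to 3927 CPM, so that the groups just separated. On CPM, 4.49% of tested miRNAs had every uterine library above every oviductal one, and on TMM-scaled CPM 7.87% did. The log2 fold change was 1.04 ± 0.43 (SE; 95% interval 0.13 to 1.95), with an unadjusted p of 0.0274 and an adjusted p of 0.188 by edgeR. The adjusted p was 0.130 by DESeq2 and 0.246 by limma-voom.

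miR-23b-3p, which is known to act on TGF-beta signalling and on endothelial growth, was the least abundant of the 3p products, with 2204 reads. It was at 1551, 462, 750, 424 and 791 CPM in oviductal replicates 1 to 5 and at 473, 1040 and 1023 CPM in uterine replicates 12, 3 and 4. The highest value of all was in oviductal replicate 1 and the groups overlapped throughout. Only 22 and 32 reads lay behind the values of oviductal replicates 2 and 3. Group means were 796 ± 453 CPM (SD, n = 5) and 845 ± 322 CPM (SD, n = 3). The log2 fold change was 0.41 ± 0.63 (SE; 95% interval -0.90 to 1.73), with an edgeR adjusted p of 0.825, and turned to -0.28 without uterine replicate 3.

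miR-24-3p, known as a restraint on proliferation and on endothelial survival, had similar means in the groups and a far wider spread in the uterus. It was at 3207, 2374, 2694, 4871 and 5280 CPM in oviductal replicates 1 to 5. Uterine replicate 12 was the lowest library at 529 CPM, replicate 3 followed at 1901, and replicate 4 was the highest at 8080 CPM. On CPM the uterine libraries thus lay on either side of the whole oviductal range, but after TMM scaling uterine replicate 3 was at 2855, inside the oviductal range of 1859 to 4968. Means were 3685 ± 1311 CPM (SD, n = 5) and 3503 ± 4023 CPM (SD, n = 3). The log2 fold change was -0.01 ± 0.59 (SE; 95% interval -1.26 to 1.24; edgeR adjusted p 0.989), and it was -0.90 without uterine replicate 4 and 0.39 without uterine replicate 12. With upper-quartile scaling it was 0.24, which is 0.05 above the median of all tested miRNAs under that scaling.

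**Figure D1:**
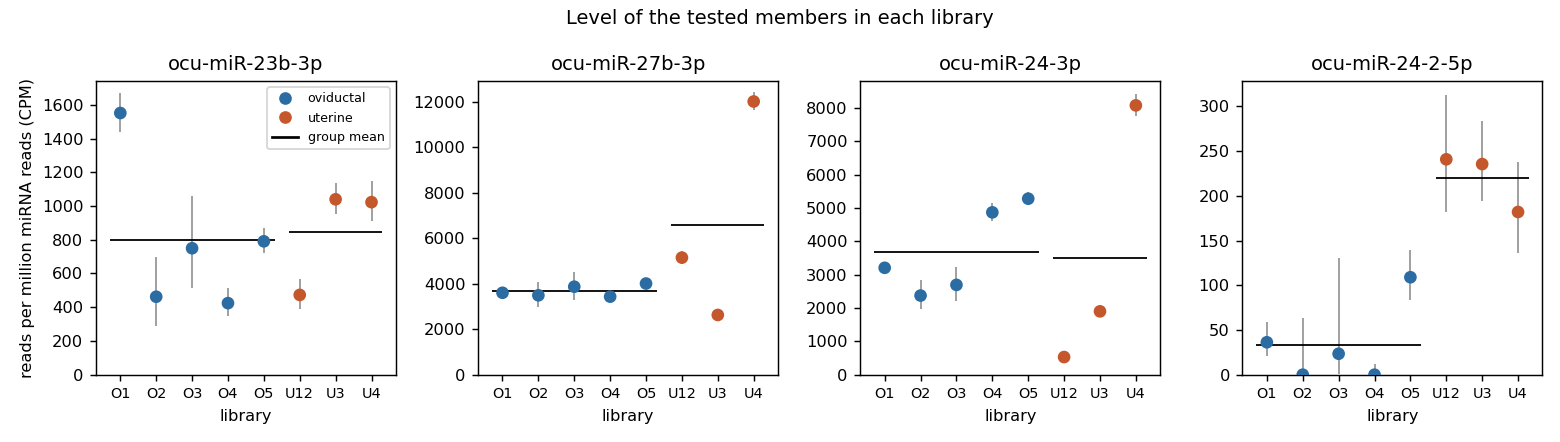
Level of the 4 tested members in each library, in CPM on linear axes that start at 0. Points are libraries (O1 to O5 oviductal, U12, U3 and U4 uterine), grey bars are 95% exact binomial intervals for counting error (for 0 reads, up to the limit of 3 reads), and black lines are group means. The oviductal values of miR-27b-3p lie between 3429 and 4005, while its uterine values run from 2624 to 12004.

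The product that separated the groups on either scale was miR-24-2-5p, the 5p arm of the MIR24-2 hairpin. It had 16, 0, 1, 0 and 62 reads in oviductal replicates 1 to 5, or 36.2, 0, 23.4, 0 and 109 CPM. It had 56, 113 and 53 reads in uterine replicates 12, 3 and 4, or 241, 235 and 182 CPM. Every uterine library was above every oviductal one, as for 4.49% of tested miRNAs on CPM and 7.87% on TMM-scaled CPM. It had at least 10 reads in 2 oviductal and 3 uterine libraries, so its passing of the low-count filter rested on the group where it is high. The 0 reads of oviductal replicate 4 came from 254590 reads and allow up to 11.8 CPM by a limit of 3 reads, whereas those of the shallow replicate 2 allow up to 63.0 CPM. The means were 33.7 ± 44.8 CPM (SD, n = 5) and 219 ± 32.6 CPM (SD, n = 3). The log2 fold change was 2.97 ± 1.23 (SE; 95% interval 0.40 to 5.55), with an unadjusted p of 0.0260 and an edgeR adjusted p of 0.188. The adjusted p was 0.113 by DESeq2 and 0.0864 by limma-voom, and over 18 alternatives it ran from 0.0864 to 0.871. The estimate rests on few oviductal reads: without oviductal replicate 5, which holds 62 of the 79, the log2 fold change was 4.05.

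**Figure D2:**
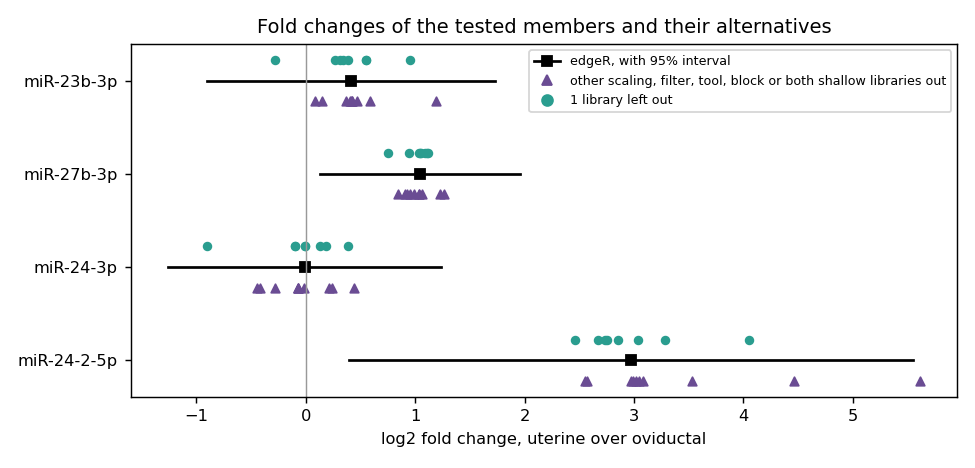
Log2 fold changes of uterine over oviductal for the 4 tested members. Black squares and lines are the edgeR estimates with 95% intervals, triangles the values under another scaling, filter, tool, block or without both shallow libraries, and circles those with 1 library left out. All alternatives of miR-27b-3p (0.75 to 1.26) and miR-24-2-5p (2.46 to 5.61) lie above 0, and those of miR-24-3p (-0.90 to 0.44) lie on either side of it.

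Members of a cluster come from a shared transcript, and the ratio of their reads within a library does not depend on how libraries are scaled. Since miR-24-3p also comes from MIR24-2, outside the cluster of MIR23B and MIR27B, its ratios are not those of a single transcript. The 3 ratios between the 3p products were compared, as log2 with a pseudocount of 0.5. Reads of miR-27b-3p and miR-24-3p were close to even in the oviductal libraries, with log2 ratios of 0.17, 0.55, 0.52, -0.51 and -0.40 in replicates 1 to 5. Uterine replicates 3 and 4 were similar, at 0.46 and 0.57, but uterine replicate 12 stood at 3.28, with 1196 reads of miR-27b-3p and 123 of miR-24-3p. The mean difference of 1.37 between groups did not pass (exact two-sided permutation p = 0.143, adjusted 0.429 over the 3 ratios), and without uterine replicate 12 it was 0.45. With 5 against 3 libraries this test cannot give a p below 0.0357, and 1 ratio alone at that p could not pass once adjusted.

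The share of miR-23b-3p varied inside each group. Its log2 ratio to miR-27b-3p ranged from -3.01 to -1.21 in oviductal and from -3.55 to -1.33 in uterine libraries, with a mean difference of -0.41 (exact permutation p = 0.536, adjusted 0.536). This difference ran from -1.13 without uterine replicate 3 to -0.03 without uterine replicate 4. Over the libraries titled 3 and 4 alone, the mean of uterine minus oviductal was 0.24. The highest values, -1.21 and -1.33, were those of oviductal replicate 1 and uterine replicate 3. The ratio of miR-23b-3p to miR-24-3p ranged from -3.52 to -1.05 and from -2.98 to -0.16, with a mean difference of 0.96 (exact permutation p = 0.321, adjusted 0.482). It was 0.37 without uterine replicate 12 and 1.78 without uterine replicate 4. The miR-23b and miR-27b hairpins are neighbours, and the ratio of their 3p products differed by up to 2.22 log2 units among uterine libraries and 1.80 among oviductal ones. Whether reads of miR-23a and miR-27a were counted under these names was not tested, so this ratio too may not be that of a single transcript.

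**Figure D3:**
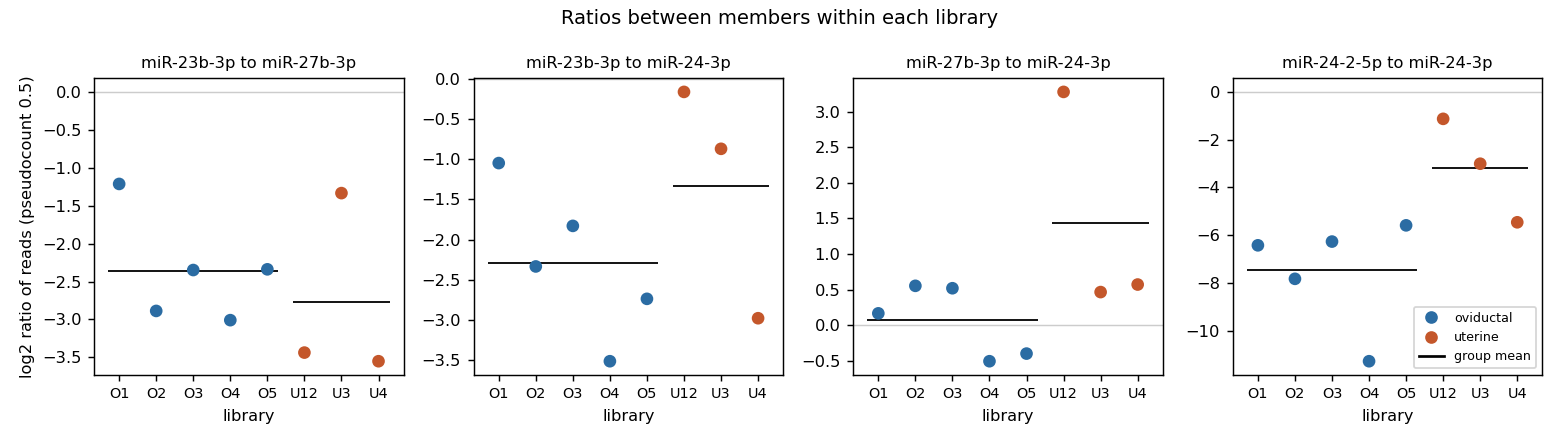
Log2 ratios of reads between members within each library (pseudocount 0.5). Points are libraries and black lines group means. In the third panel 7 libraries lie between -0.51 and 0.57 and uterine replicate 12 lies at 3.28. In the fourth panel the uterine libraries lie between -5.46 and -1.13 and the oviductal ones between -11.28 and -5.59.

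The arms were compared in the same way over 4 pairs. The ratio of miR-24-2-5p to miR-24-3p was higher in all 3 uterine libraries, at -1.13, -3.01 and -5.46 in replicates 12, 3 and 4, than in any oviductal library, the nearest being replicate 5 at -5.59. The 5p form made up 31.3%, 11.0% and 2.20% of the reads of these 2 names in the uterine libraries and 0% to 2.02% in the oviductal ones. Uterine replicate 4 (53 reads beside 2354) and oviductal replicate 5 (62 beside 3005) were close, and counting error in their order was not tested. Oviductal replicates 2 and 3 had 0 and 1 reads beside 113 and 115 of miR-24-3p, too few to place them firmly below uterine replicate 4. The mean log2 ratio was -3.20 ± 2.17 (SD, n = 3) against -7.48 ± 2.28 (SD, n = 5), a difference of 4.28. Its exact two-sided permutation p was 0.0357, the smallest possible, and 0.143 when adjusted over the 4 arm pairs. With 1 library left out, the difference ran from 3.24 (uterine replicate 12 omitted) to 5.41 (uterine replicate 4 omitted), and it was 3.33 with oviductal replicate 4 omitted. Oviductal replicates 2 and 4 have 0 reads of miR-24-2-5p, so their ratios depend on the pseudocount, and with a pseudocount of 1 the difference was 3.80. Since miR-24-3p also comes from MIR24-1, this ratio is not that of a single hairpin.

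The other minor arms were rare and patchy. miR-23b-5p had 39 reads in oviductal replicate 5, 27 in uterine replicate 4, 4 in oviductal replicate 1 and none in the other 5 libraries. miR-24-5p had 21, 28 and 8 reads in those 3 libraries and 1 in uterine replicate 3. miR-27b-5p had 14 reads in all, 8 of them in uterine replicate 4. These 3 names did not pass the filter and were not tested. No difference in their arm ratios passed the exact permutation test, with adjusted p of 0.714, 0.857 and 0.571 for miR-23b, miR-24-5p and miR-27b. In uterine replicate 4 and oviductal replicate 5, miR-23b-5p made up 8.31% and 7.98% of the miR-23b reads. In uterine replicate 3 it had 0 reads beside 499 of miR-23b-3p.

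**Figure D4:**
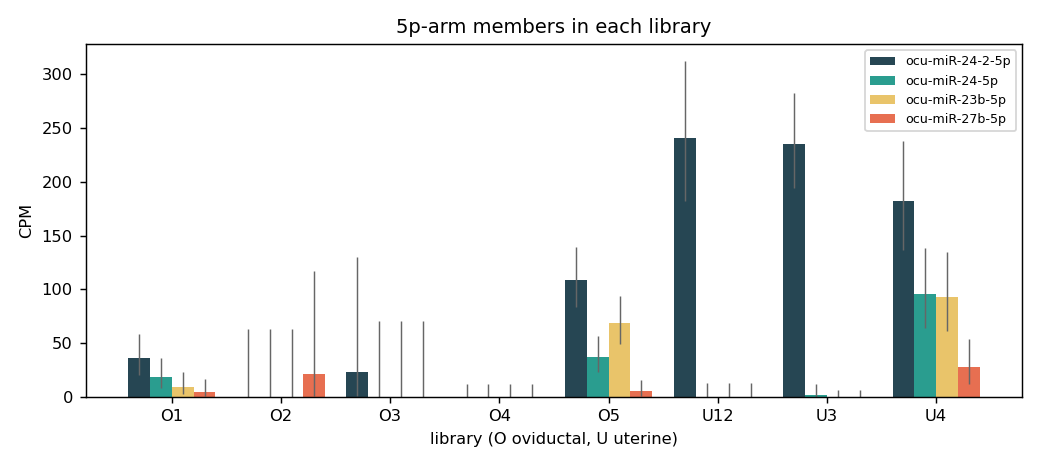
CPM of the 4 members from 5p arms in each library (O oviductal, U uterine); bars start at 0 and lines are 95% exact binomial intervals for counting error (for 0 reads, up to the limit of 3 reads). miR-24-2-5p is at 182 to 241 in the uterine libraries, while miR-24-5p and miR-23b-5p exceed 20 CPM only in O5 and U4.

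To show which miRNAs varied most like each member, log2 CPM after TMM scaling were correlated over the 8 libraries with those of the other 177 tested miRNAs. These are descriptions, since all points share their library's depth and scaling and the libraries fall into groups. For miR-27b-3p the closest were miR-143-3p (r = 0.96), miR-532-5p (0.90) and miR-146a-5p (0.85). Of these, 1 was also among the 3 closest by Spearman's rho, against 2 for each of the other members. miR-143-3p, an abundant miRNA of smooth muscle and fibroblasts, was at 3397 to 4371 CPM in the oviductal libraries and at 22297, 4735 and 44325 CPM in uterine replicates 12, 3 and 4. It was past the edgeR threshold (log2 fold change 2.81, adjusted p 0.00261), beside the 1.04 of miR-27b-3p. The order of the 3 uterine libraries was the same for both, and the difference between these fold changes was not tested.

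For miR-24-3p the closest were miR-423-3p (r = 0.98), miR-222-3p (0.95) and miR-141-5p (0.92). miR-423-3p was at 4815, 5189, 5904, 7318 and 6539 CPM in oviductal replicates 1 to 5 and at 1896, 3830 and 9402 CPM in uterine replicates 12, 3 and 4. It was thus lowest in uterine replicate 12 and highest in uterine replicate 4, as miR-24-3p was. For miR-24-2-5p they were miR-140-3p (0.88), miR-451-5p (0.86) and miR-30a-5p (0.84). For miR-23b-3p they were miR-30a-3p (0.84), miR-29a-3p (0.74) and miR-872-3p (0.69). Some of these patterns rest on 0 or few reads. miR-872-3p had 0 in oviductal replicates 2 and 3 and uterine replicate 12, and miR-141-5p had 0 in uterine replicate 12. miR-24-2-5p had 0 in oviductal replicates 2 and 4, and miR-140-3p had 2, 3 and 4 in oviductal replicates 2, 3 and 4. Members were not each other's closest. The r of miR-27b-3p with miR-24-3p was 0.07, in place 79 of 177, and with miR-23b-3p 0.25, in place 64, where Spearman's rho was 0.69. Its r with miR-24-2-5p was 0.64, in place 18 (rho 0.84). The r of miR-23b-3p with miR-24-2-5p was 0.63, in place 7. That of miR-24-3p with miR-24-2-5p, which share a hairpin, was -0.17, but miR-24-3p also comes from MIR24-1. These values depend on the scaling. With library totals in place of TMM factors, the r of miR-27b-3p was 0.31 with miR-24-3p, 0.12 with miR-23b-3p and 0.37 with miR-24-2-5p. On that scale miR-24-2-5p had r of 0.46 with miR-23b-3p and -0.24 with miR-24-3p.

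**Figure D5:**
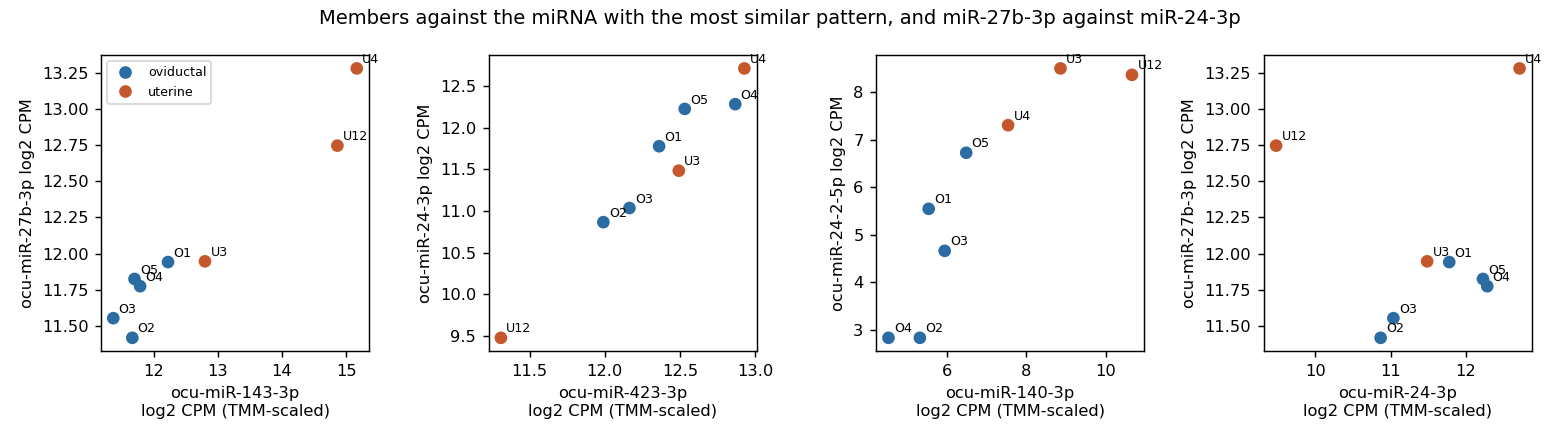
Log2 CPM after TMM scaling of miR-27b-3p, miR-24-3p and miR-24-2-5p against the miRNA with the highest correlation to each, and of miR-27b-3p against miR-24-3p, over the 8 libraries. miR-27b-3p and miR-143-3p have r = 0.96. miR-27b-3p and miR-24-3p, whose hairpins MIR27B and MIR24-1 are neighbours, have r = 0.07, but miR-24-3p also comes from MIR24-2.

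Other miRNAs of the processes in which the clusters are known were taken from lists; over all tested miRNAs 48.9% had a positive value and the median was -0.02. Of the vessel list (miR-92a, miR-221, miR-222, miR-130a and others), 11 of 15 stems had a row, and miR-126, miR-132, miR-210 and miR-296 had none. Of its 25 names 17 had a read and 8 were tested, 2 with positive and 6 with negative log2 fold changes. None was called, and the median was -0.62. In it miR-92a-3p, of the miR-17/92 cluster, was at -0.74, miR-218-5p at -0.33 and miR-378-3p at 0.03. Of the list for TGF-beta and fibrosis, 12 were tested, 9 positive and 3 negative, none called, with a median of 0.95. It shares miR-145, miR-199a and miR-214 with the smooth muscle and fibroblast list below, and miR-155 with the leukocyte list, so these counts are not separate. In it miR-21-5p was at 0.60, miR-29a-3p at 0.09 and miR-155-5p at 0.03. miR-128a-3p and miR-128b-3p, whose seed overlaps that of miR-27 and whose counts were identical, were at -0.15.

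Markers of cell types that can express the clusters moved between libraries as well. No name of the endothelial marker miR-126 was in the table. The smooth muscle and fibroblast list (10 of 14 names with a read; both miR-133b arms, miR-1-5p and miR-133a-5p at 0) held 0.399% to 0.501% of oviductal reads and 2.57%, 0.588% and 4.91% of the reads in uterine replicates 12, 3 and 4. No row was named miR-199b. All 6 of its tested names were positive and 1, miR-143-3p, was called. The log2 fold changes of miR-1-3p and miR-145-3p were 5.50 and 1.85. The epithelial list (6 of 8 names with a read; miR-205-3p and miR-375-5p at 0) held 5.42% to 6.19% of oviductal reads and 0.722%, 3.02% and 1.98% of uterine reads in that order. Only 4 of the 8 epithelial stems had a row, and miR-200a, miR-200b, miR-203 and miR-429 had none. The 5 tested epithelial names were 1 positive and 4 negative, none called. The values of miR-200c-3p, miR-375-3p and miR-205-5p were -1.13, -1.31 and -2.24. The multiciliated list (7 of 10; miR-34a-3p, miR-449a-3p and miR-449b-3p at 0) ranged from 2.77% to 6.14% and from 0.496% to 3.39%. No row was named miR-449c. The 6 tested multiciliated names were 1 positive and 5 negative, none called, with a median of -0.28. In it miR-34c-5p was at -0.39, miR-34b-3p at -1.05 and miR-34b-5p at -0.18.

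Blood cell lists were highest in uterine replicate 4, where miR-27b-3p and miR-24-3p were also highest, but so was the smooth muscle and fibroblast list (4.91%). In uterine replicate 12 miR-24-3p was lowest, at 529 CPM, while the erythrocyte list was above its oviductal range and the leukocyte list inside its own. The erythrocyte list (4 of 5 names with a read; miR-486-3p at 0) held 0.0922% to 0.288% of oviductal and 0.362%, 0.123% and 0.768% of uterine reads in replicates 12, 3 and 4. The log2 fold changes of miR-486-5p and miR-451-5p, its most abundant names, were 0.44 and 2.16, neither called. The leukocyte list (6 of 10; miR-142-5p and the minor arms of miR-146a, miR-150 and miR-155 at 0) held 0.102% to 0.245% and 0.144%, 0.0786% and 0.367%. Its 4 tested names were all positive, none called. The most abundant of them, miR-155-5p, miR-150-5p and miR-146a-5p, were at 0.03, 0.94 and 2.95. The part of these cell types in the levels of miR-27b-3p, miR-24-3p and miR-24-2-5p was not tested.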

How the data were processed

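Small RNA of vesicle pools was sequenced in 5 oviductal and 3 uterine libraries. The deposited table holds raw counts, 1 row for each pair of mature name and precursor, and the authors' RPM, equal to the count over its column sum times 1000000 to within 0.005. Per the submitters' processing notes FastQC and the build OryCun2.0 were used; aligner and counter: not given in the sources used here. Names on several rows were represented by their deepest row. CPM were computed over 1 row per name. Counts were fitted over the whole table with edgeR 4.0.16 (R 4.3.3; TMM, filterByExpr, robust quasi-likelihood test, Benjamini-Hochberg threshold 0.05), without a block, and checked on simulated counts. DESeq2 1.42.0 and limma-voom (limma 3.58.1) were alternatives. Ratios used a pseudocount of 0.5 and exact permutation over libraries, and 3p members needed 10 reads in every library. Likeness used a prior count of 2. The members, lists and tests were chosen with earlier results of these data known. Named miRNAs were all members, the 3 most alike to each tested member and up to 3 of the most abundant tested names of each list; the seed-sharing list was reduced to miR-128. Intervals are 95%, and binomial ones cover counting error only. Those of log2 fold changes are approximate. Their standard error was derived from edgeR's log2 fold change and F value, and a t quantile at edgeR's total degrees of freedom was applied to it. Reads without molecular identifiers are not independent molecules.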

Additional observations from a re-analysis of the deposited data

Results flagged for a closer look

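In 15 sets of 5 oviductal values, 3 had a library far from the others (gap to the nearest value over 0.71 of the range), where chance flags about 1 in 20 groups. miR-23b-5p was at 68.5 CPM in oviductal replicate 5, with the next library at 9.06. miR-27b-5p was at 21.0 CPM in oviductal replicate 2, which is 1 read in a shallow library, with the next at 5.27. The log2 ratio of miR-24-5p to miR-24-3p was -11.28 in oviductal replicate 4, where miR-24-5p had 0 reads beside 1240 of miR-24-3p, so the value depends on the pseudocount; the next was -7.85. Groups of 3 uterine libraries were not examined in this way.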

How the results depend on the processing

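No member was called under any of the 18 alternatives to the edgeR fit. Of 197 recomputed values 13 changed sign and none crossed the threshold, but part of them had no p or could not cross it. The log2 fold change of miR-24-3p turned positive with upper-quartile factors (0.24), with no low-count filter (0.21) and with the replicate block by title number (0.44), and ran from -0.90 to 0.39 with 1 library left out. That of miR-23b-3p ran from -0.28 to 0.95. With 1 library left out, the difference in summed share ran from -0.213 to 0.572 percentage points, that in the miR-23b-5p to miR-23b-3p ratio from -2.87 to 0.39 and that in the miR-24-5p to miR-24-3p ratio from -0.31 to 1.13; the cause was not tested. Over the libraries titled 3 and 4 alone, the mean difference in the miR-23b-3p to miR-27b-3p ratio turned to 0.24. That in the miR-23b-5p to miR-23b-3p ratio turned to 0.19. These means leave out the other libraries and were not tested, and no block was fitted to the ratios. Permutation tests with 1 library left out could not pass, since their smallest p is 0.0571 or 0.0952. Those without both shallow oviductal libraries had fewer splits still and could not pass either. The likeness of miR-23b-3p and miR-30a-3p was 0.67 by Spearman's rho. Over all tested miRNAs the median log2 change was -0.31 with library totals only, 0.19 with upper-quartile factors and -0.40 with limma-voom, against -0.02; relative to it, miR-27b-3p was at 1.15, 1.07 and 1.33, against 1.07. Over all miRNAs 3 were called, 11 by DESeq2, 1 by limma-voom, 1 with library totals, 6 with upper-quartile factors, 13 with no filter, 7 with repeated rows summed, 0 with either replicate block, 0 without both shallow libraries and 1 to 27 with 1 library left out. Same-numbered libraries did not deviate together (r of -0.15, -0.17 and -0.08 for library numbers 1, 3 and 4), and the numbers were not taken as pairs. With so few pairs and uterine libraries, this check cannot decide whether such pools shared does. With the blocks miR-27b-3p was at 0.95 and 0.90 and miR-24-2-5p at 5.61 and 4.47. Depth limits miR-24-2-5p and the other 5p arms in oviductal replicates 2 and 3, where 3 reads stand for 63.0 and 70.3 CPM. Leaving out both shallow libraries was an alternative added after seeing the data for the ratios and the share.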

Other observations

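Chosen after its values were seen, the oviductal spread of miR-27b-3p was the lowest among the 178 tested miRNAs on CPM, with a coefficient of variation of 6.75%, followed by let-7i-5p at 9.94% and miR-143-3p at 11.3%. Counting error alone at these depths gives 5.34% for miR-27b-3p, and the median of all tested miRNAs was 57.2%. After TMM scaling its value was 14.4%, in place 3. In the uterine libraries it was 73.7%, where the median was 88.8%. The 5p arm miR-24-2-5p was at 14.8% in the uterine libraries, in place 6 from the lowest, and at 133% in the oviductal ones, where counting error gives 55.7%.

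The 5p arms of the hairpins MIR24-1 and MIR24-2 have separate names, so their reads can be set side by side, also chosen after the values were seen. miR-24-2-5p made up 56 of 56 such reads in uterine replicate 12 (100%; 95% exact interval 93.6% to 100%), 113 of 114 in uterine replicate 3 (99.1%; 95.2% to 99.98%) and 53 of 81 in uterine replicate 4 (65.4%; 54.0% to 75.7%). In oviductal replicates 5 and 1 it made up 62 of 83 (74.7%; 64.0% to 83.6%) and 16 of 24 (66.7%; 44.7% to 84.4%). The interval of uterine replicate 4 overlapped those of both oviductal libraries. The other 3 oviductal libraries had 1 such read in all, and the difference between the groups was not tested.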
